A study of Mus musculus with 8 samples.

Results

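Marker and regulator genes of the lineages that mesenchymal stem cells (MSCs) can enter were followed in mouse bone marrow MSCs with and without constitutively active RhoA. The genes were given by name, with all of their probes, and fell into 6 classes: 14 adipocyte genes, 10 osteoblast genes, 11 chondrocyte genes, 8 muscle genes, 1 neural gene and 4 stem marker genes. Of these 48 genes, 44 had at least 1 probe named for them in the annotation used here, out of 16593 named genes on the array, and they were covered by 70 probes. Cebpd, Runx2, Prg4 and Ly6a had none and were not analysed here.

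The cells were purchased mouse bone marrow MSCs, cultured in αMEM with 10% FCS and used at passage 6. They were transfected by lipofection with Myc-L63RhoA, a Myc-tagged RhoA with a mutation that keeps the GTPase active, or with the empty vector (EV) as control. RNA of 4 EV samples and 4 L63RhoA samples was hybridized to Illumina MouseRef-8 bead arrays, 1 array per sample. The sample records place the harvest at 48 h after transfection and the methods at 3 days. The series describes 4 independent experiments without tying a sample to an experiment, so each p-value covers only the spread between the arrays, which may be technical. No selection of transfected cells is described, so a value may average transfected and untransfected cells of a culture. In such bulk RNA, fewer cells that express a gene and less RNA per cell cannot be told apart.

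MSCs are stromal progenitors that are defined by their capacity to form fat, bone and cartilage. Each fate is governed by a small set of transcription factors, which come on before the structural, secreted or metabolic products of the mature cell. PPARγ and the C/EBP factors drive adipogenesis, Runx2 and osterix drive osteoblast formation, Sox9 with Sox5 and Sox6 drives chondrogenesis, and MyoD and myogenin drive skeletal myogenesis. RhoA acts through its kinase ROCK on actin tension, and cell tension is known to bias MSCs between fat and bone fates in culture.

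Over the series, 11925 to 12981 of 25697 probes per array had a detection p-value under 0.05, and mean signals ranged from 320 to 350 in L63RhoA and from 274 to 377 in EV, with EV 2 and EV 4 lowest (274 and 292). The detection p-value, deposited for each probe, states how often a negative control bead was as bright. The single Rhoa probe was detected on 0 of 8 arrays, so expression of the construct was not checked on these arrays. The cell label was checked against marker genes. The stromal genes Eng, Itgb1, Cd44, Vcam1, Alcam, Pdgfra and Pdgfrb were detected on all 8 arrays. In contrast, Lepr, Cd200 and the stem marker gene Thy1 were detected on 0, and Mcam on 3. The leukocyte genes Ptprc, Itgam, Cd3e, Cd79a, Spi1, Adgre1 and Lyz2 and the endothelial genes Cdh5, Tie1, Emcn, Sox17 and Esam were detected on 0 arrays, while Cd14, Flt1 and Vwf were detected on all 8, Vav1 on 3, and Pecam1 and Erg on 2. Kdr was detected on 2 EV and 3 L63RhoA arrays (log2 fold change 0.28). Tek, an endothelial receptor gene, was detected on 0 EV and 4 L63RhoA arrays, near background (mean log2 intensity 4.39 in EV and 4.86 in L63RhoA). Its log2 fold change was 0.47 (limma adjusted p = 0.087), and its groups did not overlap, as for 9.93% of all genes tested. A test required detection on at least 4 of the 8 arrays, which Tek met only through the L63RhoA arrays. Its fold change is therefore no separate support for a difference. Of the 11 endothelial genes with a probe 4 were tested and 0 passed, and the part of such cells in the results was not tested. A component of the variation within groups held 48.2% of that variance. On it EV 3 (score 9.12) lay toward the other L63RhoA arrays (13.03 to 15.23), and L63RhoA 1 (-8.9) lay toward the other EV arrays (-20.2 to -3.53).

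Of the lineage genes named here, those detected in these MSCs were mostly regulators, and most of those for other products were not detected. A gene was counted as detected when a probe had a detection p-value under 0.05 on at least 4 of the 8 arrays. By this count 20 of the 44 genes with a probe were detected (45.5%), against 50.4% of all 16593 named genes. Of the 20, 17 were detected on all 8 arrays. A further 10 genes were detected on 1 to 3 arrays and 14 on none. The 30 probes that were detected on no array had signals of 78.6 to 104.1, where the lowest signal of any probe was 75.2. The genes were also sorted by role after detection had been seen. Of 22 genes with a probe that encode transcription factors or coactivators, 15 were detected and 2 were on no array, and of the 22 that encode other products, 5 were detected and 12 were on no array. This split depends on which genes were named. On the broader lists below, products such as Col1a1, Sparc, Scd1 and Dgat2 were detected on all 8 arrays. The regulators Myf5, Pax3, Pax7 and Sox2 were detected on none there. At background level expression was not detectable on these arrays, which is not evidence that a transcript was absent.

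Among the adipocyte genes, 5 of the 13 with a probe were detected, all on every array. They were Pparg, the master regulator of adipogenesis, Cebpb, an early C/EBP factor, Lpl, which encodes lipoprotein lipase, Plin2, a coat protein of lipid droplets in many cell types, and Pnpla2, which encodes adipose triglyceride lipase. Several markers of the mature adipocyte were not. Fabp4 (fatty acid binding protein), Adipoq (adiponectin), Plin1 (the droplet coat protein of adipocytes) and Cd36 (a fatty acid receptor) were detected on 0 arrays. Cebpa was detected on 1 EV and 2 L63RhoA arrays, Fabp5 on 2 EV arrays, Lep, the leptin gene, on 2 L63RhoA arrays, and Lipe, the hormone-sensitive lipase gene, on 1 L63RhoA array. These 4 genes had no test, because their probes did not pass the filter.

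Among the osteoblast genes, 6 of 9 were detected, the largest share of the 4 larger classes (66.7%). All 6 were transcription factor genes: Runx1, Sp7 (osterix), the homeobox genes Msx1 and Msx2, and the basic helix-loop-helix genes Twist1 and Twist2. Bglap (osteocalcin), the homeobox gene Dlx5 and Sost (sclerostin, a product of osteocytes) were detected on 0 arrays, Bglap by none of its 3 probes.

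Among the chondrocyte genes, 2 of 10 were detected, the smallest share (20%). These were Sox9 and Sox5. Sox6 was detected on 1 L63RhoA array. Of the cartilage matrix genes, Acan (aggrecan), Col10a1 (the collagen of hypertrophic cartilage), Matn3, Hapln1 and Chad were detected on 0 arrays and Comp on 1. The 2 probes of Col2a1, the main collagen of cartilage, were each detected on 1 array, one in EV and the other in L63RhoA.

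Of the muscle genes, 4 of 8 were detected: Mef2a and Mef2c, which are used in many cell types, Gata6 and Tbx18. Myod1, the skeletal muscle determination factor, was detected on 0 arrays, Myog, its downstream partner, on 1, Myocd, the coactivator of serum response factor in smooth and cardiac muscle, on 1, and Mef2d on 3. Nes, the intermediate filament gene of neural progenitors and of a bone marrow MSC population, was detected on all 8 arrays. So were the stem marker genes Nt5e (CD73) and Prrx1, a homeobox gene of limb and craniofacial mesenchyme, whereas Thy1 (CD90) was detected on 0.

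**Figure D1:**
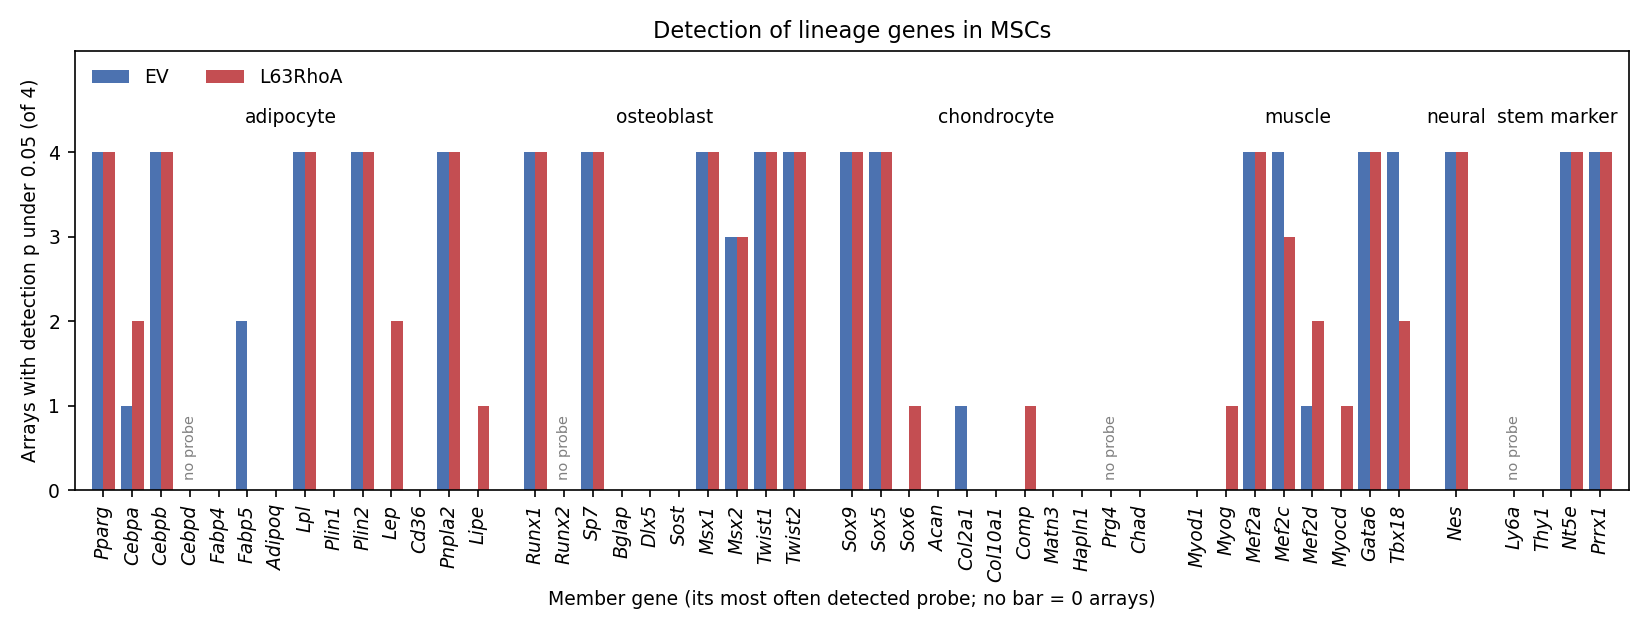
Number of arrays (y axis, of 4 per group) on which each lineage gene had a detection p-value under 0.05, taken from its most often detected probe, for EV (blue) and L63RhoA (red), with genes grouped by class. The regulators Pparg, Runx1, Sox9 and Gata6 reach 4 of 4 in both groups. Fabp4, Adipoq, Bglap and Acan stay at 0, and so do the regulators Myod1 and Dlx5.

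L63RhoA was then compared with EV over all genes. In limma with Benjamini-Hochberg adjustment over the 8360 genes tested, 59 (0.706%) passed an adjusted p of 0.05. Of the 20 lineage genes tested, 1 passed, Lpl, which was higher in L63RhoA, and 19 did not. In each direction the share of all genes was 0.383% higher and 0.323% lower, and the lineage genes gave 1 higher and 0 lower. At an unadjusted p of 0.05, 6 of the 20 passed (24.4% of all genes did), 2 of them higher (Lpl and Twist2, where 13.7% of all genes were higher) and 4 lower (Msx1, Twist1, Sox9 and Nes, where 10.7% of all genes were lower). Groups did not overlap for 2 of the 20, Lpl, which was higher (5.2% of all genes), and Nes, which was lower (4.72% of all genes), where 9.93% of all genes did not overlap in either direction. The median log2 fold change over the 20 genes was 0.03, beside 0.01 over all genes tested, and the single values ran from -0.73 to 0.61. By class the medians were 0.15 for the 5 adipocyte, 0.11 for the 6 osteoblast and -0.07 for the 4 muscle genes tested. They were -0.16 for the 2 chondrocyte and 0.16 for the 2 stem marker genes tested, each only the midpoint of 2 genes.

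**Figure D2:**
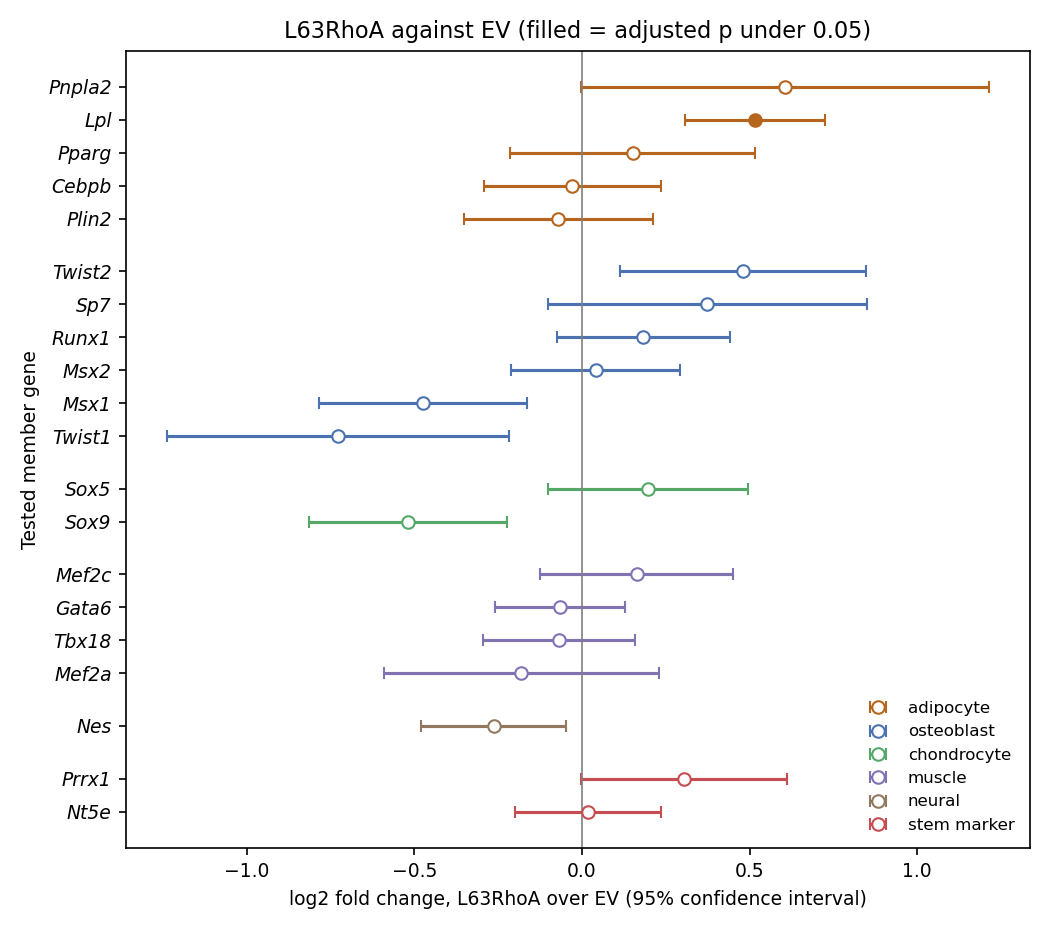
Log2 fold change (x axis, L63RhoA over EV) with its 95% confidence interval from limma for the 20 lineage genes tested (4 arrays per group), coloured by class, with a filled point for an adjusted p under 0.05. Lpl alone is filled, and the open points run from Twist1 at -0.73 to Pnpla2 at 0.61.

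Lpl, whose product frees fatty acids from circulating triglyceride for uptake, was upregulated in MSCs with L63RhoA. Its deposited signal was 255.4, 182.1, 280.0 and 199.4 on EV arrays 1 to 4 and 333.1, 321.6, 315.2 and 292.9 on L63RhoA arrays 1 to 4. After normalization the log2 intensity was 7.44, 7.16, 7.43 and 7.19 in EV and 7.86, 7.81, 7.77 and 7.83 in L63RhoA. Every L63RhoA array was above every EV array on both scales, and the L63RhoA arrays lay closer together (SD 0.03, against 0.15 in EV). The rise was 1.43-fold (95% confidence interval, CI, of 1.24 to 1.65), a log2 fold change of 0.52 (SE 0.09, limma adjusted p = 0.042), which placed Lpl at rank 44 of the 8360 genes by p. EV 1 and EV 3 were higher than EV 2 and EV 4, the arrays with the lowest mean signal. Without EV 2 and EV 4 the log2 fold change was 0.39 (limma adjusted p = 0.31, 2 EV arrays left). With 1 array left out it stayed between 0.47 and 0.56, and the adjusted p was 0.021 without L63RhoA 1, 0.025 without EV 3 and 0.073 to 0.14 without any of the other 6 arrays. With median scaling of the arrays in place of quantile normalization the log2 fold change was 0.57, and Lpl did not pass (limma adjusted p = 0.10).

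The other adipocyte genes did not pass the test. Pnpla2, whose enzyme starts the breakdown of stored triglyceride, had the largest positive log2 fold change of all the lineage genes, 0.61 (SE 0.28, limma adjusted p = 0.21). Its log2 intensity was 8.33, 7.42, 8.49 and 7.24 on the EV arrays and 8.03, 8.58, 8.56 and 8.74 on the L63RhoA arrays. EV 1 and EV 3 lay within the range of L63RhoA, and EV 2 and EV 4 lay far below it. Without EV 2 and EV 4 the log2 fold change was 0.06 (limma adjusted p = 0.93).

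Pparg itself was at 5.73, 5.60, 6.09 and 5.29 in EV and at 5.64, 5.68, 5.90 and 6.10 in L63RhoA. EV 2 and EV 4 lay below all L63RhoA arrays and EV 1 and EV 3 within their range. The log2 fold change was 0.15 (95% CI -0.21 to 0.52, limma adjusted p = 0.58), and without EV 2 and EV 4 it was -0.08. Its other 2 probes were detected on 3 and on 0 arrays and were not tested. Cebpb and Plin2 were well above background, with signals of 5359.4 to 8010.7 and of 1571.8 to 2260.7. Their log2 fold changes were -0.03 (interval -0.29 to 0.23) for Cebpb and -0.07 (interval -0.35 to 0.21) for Plin2. Of these 5 genes, Lpl alone had groups that did not overlap.

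A broader list of 33 adipocyte genes (lipid synthesis and droplet genes, adipogenic factors and hormones) was set beside these. It had 31 genes with a probe, of which 17 were detected on all 8 arrays, among them the lipid synthesis genes Scd1 and Dgat2. Of the 31, 20 were tested and 0 passed in either direction in limma. At an unadjusted p of 0.05, 4 were higher and 2 lower (13.7% and 10.7% of all genes), and the median log2 fold change was -0.00, beside 0.01 over all genes. The smallest p belonged to Dgat1, which encodes an enzyme of the last step of triglyceride synthesis. It was at 6.24, 6.46, 6.38 and 6.25 in EV and at 7.10, 6.71, 6.82 and 6.79 in L63RhoA. The groups did not overlap, and the log2 fold change was 0.52 (limma adjusted p = 0.059). Acaca, the acetyl-CoA carboxylase gene of fatty acid synthesis, had a log2 fold change of 0.68 (limma adjusted p = 0.087), with EV 3 (7.86) above L63RhoA 1 (7.78). The other 4 genes at an unadjusted p of 0.05 were named after their values were seen. Plin4, a droplet coat gene, and Klf5, an adipogenic factor, had log2 fold changes of 0.47 and 0.59, while Dgat2, a second gene of triglyceride synthesis, and Dlk1, the preadipocyte factor that restrains adipogenesis in the mouse, had -0.35 and -0.54 (limma adjusted p = 0.11, 0.20, 0.13 and 0.16). Dgat1 and Dgat2 thus had log2 fold changes of opposite sign. Neither passed, and the difference between them was not tested.

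Of the 6 osteoblast genes tested, 0 passed in limma. At an unadjusted p of 0.05, 1 was higher and 2 lower, where 13.7% and 10.7% of all genes were. The 3 with the smallest p were Msx1, Twist1 and Twist2. In the mouse the Twist proteins hold back osteoblast differentiation, and Msx1 acts in craniofacial and dental mesenchyme. Twist1 had the most negative log2 fold change of all the lineage genes and Twist2, its close relative, the largest positive one of the osteoblast genes. Neither Twist gene passed, and the difference between them was not tested. The promoter letters are shown for the Twist genes because these relatives had fold changes of opposite sign, and for Msx1 because it had the smallest p of the osteoblast genes. The sequences are from RefSeq (build GRCm38.p6) and cover 250 bases before to 50 bases after the start of the gene, 5′ to 3′ on the strand of the gene. They lie at chr12:33957421-33957720 on the plus strand for Twist1, chr1:91801211-91801510 on the plus strand for Twist2 and chr5:37824536-37824835 on the minus strand for Msx1. Capitals mark a CCAAT box on either strand (ATTGG where the match is on the opposite strand) and, in Twist1, a TATAAA match.
Twist1: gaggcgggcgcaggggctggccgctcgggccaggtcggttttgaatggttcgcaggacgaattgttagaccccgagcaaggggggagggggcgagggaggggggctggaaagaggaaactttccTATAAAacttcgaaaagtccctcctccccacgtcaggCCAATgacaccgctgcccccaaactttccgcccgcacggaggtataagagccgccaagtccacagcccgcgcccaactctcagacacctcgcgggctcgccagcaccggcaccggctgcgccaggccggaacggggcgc
Twist2: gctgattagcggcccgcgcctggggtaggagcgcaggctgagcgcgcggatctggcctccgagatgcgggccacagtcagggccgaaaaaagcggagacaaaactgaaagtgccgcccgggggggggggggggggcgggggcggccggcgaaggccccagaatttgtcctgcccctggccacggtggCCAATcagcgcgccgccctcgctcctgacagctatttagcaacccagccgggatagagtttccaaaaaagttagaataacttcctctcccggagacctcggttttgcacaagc
Msx1: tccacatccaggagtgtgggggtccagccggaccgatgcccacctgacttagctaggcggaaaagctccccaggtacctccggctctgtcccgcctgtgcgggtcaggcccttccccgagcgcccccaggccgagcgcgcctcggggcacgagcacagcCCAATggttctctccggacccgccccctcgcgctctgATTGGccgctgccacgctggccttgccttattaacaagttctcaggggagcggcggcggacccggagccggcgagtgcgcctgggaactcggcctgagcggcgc

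All 3 windows were rich in G and C (66%, 64.7% and 70% in this order) and held 27, 25 and 29 CpG sites. A CCAAT box began 89 bases before the start in Twist1 and 63 bases before it in Twist2. Msx1 had a CCAAT box 91 bases before the start and another on the opposite strand 54 bases before it. CCAAT was found in 37.4% of the 32851 promoters in the table. TATAAA (13.6% of promoters) was found in Twist1 alone of the 3, 126 bases before the start. On both strands none of the 3 windows held the CArG box of serum response factor (1.63% of promoters), the GGAATG letters bound by TEAD factors (14.7%) or the CAGCTG E-box (16.3%). Over the 33 lineage genes with a promoter in the table, a CArG box was found in 0, GGAATG in 7, CCAAT in 17, TATAAA in 9 and CAGCTG in 6. Here a gene was counted if any of its promoters held the match. The percentages above are per promoter, so the gene counts cannot be set directly against them. These matches are counts of letters in a window.

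Twist1 was at a log2 intensity of 8.27, 8.76, 7.95 and 9.05 in EV and of 8.23, 7.62, 7.53 and 7.74 in L63RhoA. L63RhoA 1 lay within the range of EV, and the other 3 lay below all EV arrays. The level was 1.66-fold lower (log2 fold change -0.73, 95% CI -1.24 to -0.22, limma adjusted p = 0.12). Without EV 3 it was -0.91 (limma adjusted p = 0.032), without L63RhoA 1 it was -0.88 (limma adjusted p = 0.035), and without EV 2 and EV 4 it was -0.34.

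Twist2 was at 8.95, 8.82, 9.53 and 8.93 in EV and at 9.19, 9.66, 9.66 and 9.63 in L63RhoA. EV 3 was above L63RhoA 1, which again stood apart from the other 3 arrays of its group. The log2 fold change was 0.48 (1.40-fold, 95% CI of the log2 value 0.11 to 0.85, limma adjusted p = 0.14). It was 0.64 without EV 3 and 0.60 without L63RhoA 1 (limma adjusted p = 0.027 and 0.037) and 0.30 without EV 2 and EV 4.

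Msx1 was at 6.72, 7.15, 6.62 and 7.03 in EV and at 6.65, 6.19, 6.45 and 6.33 in L63RhoA. Only EV 3 and L63RhoA 1 crossed between the groups. The level was 1.39-fold lower (log2 fold change -0.47, SE 0.14, limma adjusted p = 0.11). It was -0.56 without EV 3 and also without L63RhoA 1 (limma adjusted p = 0.038 and 0.033), and -0.27 without EV 2 and EV 4.

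The remaining osteoblast genes were not set apart. Sp7, which acts after Runx2 in bone formation, had a log2 fold change of 0.37 (95% CI -0.10 to 0.85, limma adjusted p = 0.30) at signals of 93.7 to 136, close to background. Runx1, a Runx2 relative known from blood formation, had 0.18 (interval -0.07 to 0.44). Msx2, detected on 3 arrays of each group, had 0.04 (interval -0.21 to 0.29). On a broader list of 30 osteoblast genes (matrix, mineralization and BMP pathway), 25 had a probe, 14 were detected on all 8 arrays, 16 were tested and 0 passed in either direction in limma. Those on all 8 included Alpl (alkaline phosphatase), Col1a1 and Col1a2 (the chains of type I collagen), Sparc, Phex and Ogn. At an unadjusted p of 0.05, 2 were higher and 1 lower (13.7% and 10.7% of all genes), and the median log2 fold change was 0.06. Col1a1 had -0.40, Col1a2 0.20 and Alpl 0.33 (limma adjusted p = 0.23, 0.39 and 0.23). Phex, a protease gene of bone mineralization, was at 6.24, 5.79, 6.01 and 6.08 in EV and at 6.35, 6.27, 6.63 and 6.42 in L63RhoA (log2 fold change 0.39, groups not overlapping, limma adjusted p = 0.12). Sparc, which encodes the matrix protein osteonectin, had a log2 fold change of -0.35 (limma adjusted p = 0.14). The other gene at an unadjusted p of 0.05, Cbfb, the partner of the Runx factors, was named after its value was seen and had 0.19 (limma adjusted p = 0.18). Of the rest, Ibsp, Dmp1 and Bmp2 were detected on 0 arrays, as Bglap was.

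Sox9, the factor that cartilage formation requires, had the smallest p of the 19 lineage genes that did not pass. Its log2 intensity was 7.53, 7.63, 7.13 and 7.55 on the EV arrays and 7.07, 6.83, 6.73 and 7.13 on the L63RhoA arrays. EV 3 lay at the level of L63RhoA 4, and the other EV arrays were above all of L63RhoA. The level was 1.43-fold lower (95% CI 1.17 to 1.76), a log2 fold change of -0.52 with an SE of 0.13 (limma adjusted p = 0.093). Without EV 3 it was -0.63 and without L63RhoA 1 -0.56 (limma adjusted p = 0.026 and 0.035), and without EV 2 and EV 4 it was -0.39. Sox5, which acts with Sox9 on cartilage matrix genes, was at 5.38, 5.31, 5.77 and 5.15 in EV and at 5.41, 5.75, 5.61 and 5.64 in L63RhoA (log2 fold change 0.20, interval -0.10 to 0.50). A second Sox5 probe, detected on 3 EV arrays and 1 L63RhoA array, had -0.17, so the 2 probes differed in sign.

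Of a broader list of 25 cartilage genes, 24 had a probe, 2 were detected on all 8 arrays, 5 were tested and 0 passed in limma. At an unadjusted p of 0.05, 2 were higher and 0 lower (13.7% and 10.7% of all genes). Prelp, a leucine-rich proteoglycan gene of cartilage and other connective tissue, was at 4.64, 4.82, 4.54 and 4.40 in EV and at 4.98, 4.92, 4.98 and 4.86 in L63RhoA. The groups did not overlap, but the probe was near background and was detected on 2 EV and 4 L63RhoA arrays (log2 fold change 0.34, limma adjusted p = 0.12). Chst11, a chondroitin sulphotransferase gene, had 0.29 (limma adjusted p = 0.17). The collagen genes Col9a2, Col9a3 and Col11a1 and the matrilin gene Matn1 were detected on 0 arrays, as were Acan and Col10a1 above.

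None of the 4 muscle genes tested passed at an adjusted or an unadjusted p of 0.05 in limma. Gata6, a zinc finger factor of smooth muscle and cardiac cells, was at 7.68, 7.67, 7.64 and 7.78 in EV and at 7.49, 7.60, 7.69 and 7.73 in L63RhoA. Its log2 fold change of -0.07 (interval -0.26 to 0.13) had the smallest SE of the 20 genes. Mef2a was at 5.10, 5.68, 5.31 and 5.73 in EV and at 5.67, 4.88, 5.40 and 5.14 in L63RhoA (log2 fold change -0.18, interval -0.59 to 0.23), and its other 2 probes had -0.01 and -0.27. Mef2c was at 4.74, 4.86, 4.63 and 4.65 in EV and at 4.68, 5.13, 5.09 and 4.63 in L63RhoA, where it was detected on 3 arrays (log2 fold change 0.16, interval -0.12 to 0.45). Tbx18, a T-box gene of mural cells, was detected on 4 EV and 2 L63RhoA arrays and had -0.07.

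The contractile genes of smooth muscle were set beside these factors. On a list of 15 smooth muscle genes, 14 had a probe and 8 were tested, with a median log2 fold change of -0.04. In limma 1 rose (Acta2) and 0 fell, where 0.383% and 0.323% of all genes did. At an unadjusted p of 0.05, 2 were higher and 2 lower (13.7% and 10.7% of all genes). Acta2, which encodes αSMA and was picked by the study from these same arrays, was at 9.70, 9.22, 9.69 and 9.06 in EV and at 10.52, 10.69, 10.67 and 10.52 in L63RhoA (log2 fold change 1.18, limma adjusted p = 0.0058). By the methods' t-test, which the paper describes for comparing 2 groups in general, the adjusted p was 0.078. For the arrays the study used a permutation test at a false discovery rate of 20%, which was not rerun here. The other 3 Acta2 probes had 0.66 to 0.87, and 2 of them passed over probes. Apart from the arrays, the paper reported higher Acta2 by qRT-PCR and more αSMA-positive cells with L63RhoA. Srf, the serum response factor gene, did not pass and had 0.53 (limma adjusted p = 0.072). The 2 lower genes were named after their values were seen. Smtn, the smoothelin gene, was at 7.96, 8.09, 7.70 and 8.18 in EV and at 7.67, 7.61, 7.53 and 7.60 in L63RhoA. The groups did not overlap (log2 fold change -0.39, limma adjusted p = 0.11). Cald1, the caldesmon gene, had -0.69 (limma adjusted p = 0.15), with overlapping groups. Of the other genes on this list, Tpm1, Tpm2, Mylk and Actg2 were detected on all 8 arrays. Their log2 fold changes were -0.07, -0.01, -0.09 and 0.39, and none passed in limma. Cnn1, Myh11 and Lmod1 were detected on 0 arrays and Tagln on 1, as Myocd was. Of 20 skeletal muscle genes, 16 had a probe and only Des, the desmin gene, was tested (log2 fold change 0.27, limma adjusted p = 0.38). Myf5, Myf6, Pax3 and Pax7 were detected on 0 arrays, like Myod1.

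Nes, the neural member, was at 7.22, 7.35, 7.11 and 7.43 in EV and at 7.08, 6.96, 6.91 and 7.10 in L63RhoA. All L63RhoA arrays were below all EV arrays, although EV 3 and L63RhoA 4 nearly met. The log2 fold change was -0.26 (1.20-fold lower, 95% CI of the log2 value -0.48 to -0.05), and the adjusted p was 0.15 from limma. The second Nes probe, also detected on all 8 arrays, had 0.15 (interval -0.21 to 0.50), so the probes disagreed in sign. Of 15 other neural genes, 13 had a probe, 3 were tested and 0 passed in limma, also at an unadjusted p of 0.05. Ncam1, a neural cell adhesion gene, had -0.14 and Map2, a neuronal microtubule gene, 0.10. The 3 tested, Ncam1, Map2 and Ngfr, were detected on all 8 arrays, while Sox2, Gfap, Nefl, Dcx and Pax6 were detected on 0. Nes was thus detected along with some genes of the neural list and without others.

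Nt5e (CD73), an ectonucleotidase used to identify MSCs, was at 8.92, 8.84, 9.09 and 8.93 in EV and at 8.81, 8.94, 9.14 and 8.96 in L63RhoA by its brighter probe. The groups overlapped, with a log2 fold change of 0.02 (interval -0.20 to 0.23). By its second probe it was at 7.49, 7.37, 7.11 and 7.34 in EV and at 7.10, 6.63, 6.70 and 6.94 in L63RhoA. There the groups did not overlap, and the log2 fold change was -0.49 (interval -0.76 to -0.21, limma adjusted p over probes = 0.096). The 2 probes thus gave different values for Nt5e, and the difference between them was not tested.

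Prrx1 was at 7.31, 7.43, 7.95 and 7.48 in EV and at 7.79, 7.73, 8.05 and 7.80 in L63RhoA, where only EV 3 reached the L63RhoA arrays. The log2 fold change was 0.30 (interval -0.00 to 0.61, limma adjusted p = 0.21). The other 2 probes of Prrx1 that were tested had 0.07 and 0.07. Of 20 stromal genes set beside the stem markers, 19 had a probe and 16 were tested, with a median log2 fold change of -0.08. In limma 1 rose and 0 fell, where 0.383% and 0.323% of all genes did. At an unadjusted p of 0.05, 2 were higher and 2 lower (13.7% and 10.7% of all genes). The one that rose was Cxcl12, the chemokine by which marrow stroma retains blood stem cells, at 6.55, 6.38, 6.50 and 6.55 in EV and at 7.14, 7.22, 7.44 and 7.58 in L63RhoA (log2 fold change 0.85, limma adjusted p = 0.0063). Its other 2 probes had 0.38 and 0.36 and did not pass. Cxcl12 did not pass by the mean of its probes (0.53, limma adjusted p = 0.060), by the methods' t-test (adjusted p = 0.060) or without EV 2 and EV 4 (0.83, limma adjusted p = 0.11), and with the authors' values it had 0.52 and passed. Grem1, a BMP antagonist gene of skeletal stem cells, had -0.33 (limma adjusted p = 0.11). The other 2, named after their values were seen, were Foxc1, a forkhead factor gene of marrow stroma, with 0.33 and Cd44, a hyaluronan receptor gene, with -0.33 (limma adjusted p = 0.14 and 0.17).

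**Figure D3:**
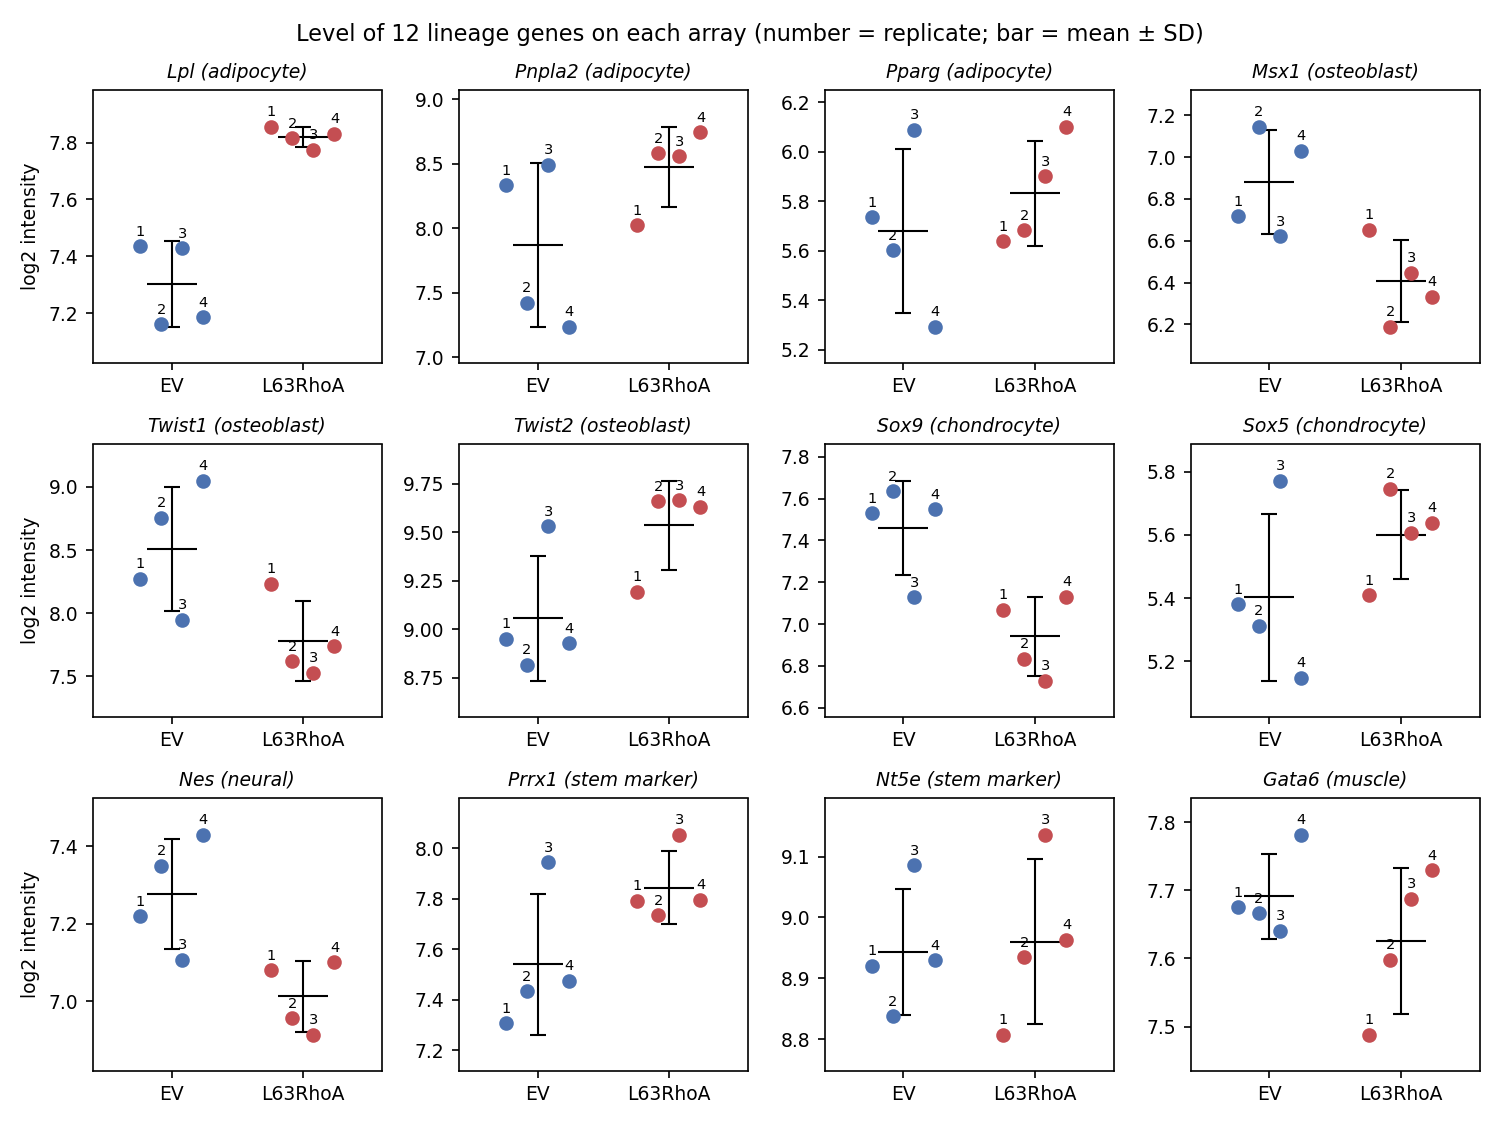
Log2 intensity (y axis, a scale of its own in each panel) of 12 lineage genes on each array, for EV (blue) and L63RhoA (red), with the replicate number above each point and the mean ± SD (n = 4 per group) as bars. The groups separate for Lpl and Nes, EV 2 and EV 4 stand apart from EV 1 and EV 3 for Pnpla2 and Twist1, and L63RhoA 1 stands apart for Twist2.

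The arrays of a group were ordered alike for many of the lineage genes. For 15 of the 20 genes tested (75%), EV 2 and EV 4 both lay above or both lay below EV 1 and EV 3, against 54.5% of all genes tested. For 15 of the 20, EV 3 was the EV array farthest in the direction of the L63RhoA mean (49.4% of all genes), and for 13 of the 20 L63RhoA 1 was the L63RhoA array farthest toward EV (55.6% of all genes). These shares are descriptions, since the genes are not independent of each other. With EV 3 left out, 6 lineage genes passed the test (Lpl, Msx1, Prrx1, Sox9, Twist1 and Twist2), and with L63RhoA 1 left out 5 passed, the same without Prrx1. With any other single array left out, 0 passed. Over all genes the count went from 59 to 936 without EV 3 and to 1274 without L63RhoA 1, and to 17 to 29 without any other array, so the counts of lineage genes and of all genes moved together. Without EV 2 and EV 4 together 0 lineage genes and 7 genes in all passed.

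**Figure D4:**
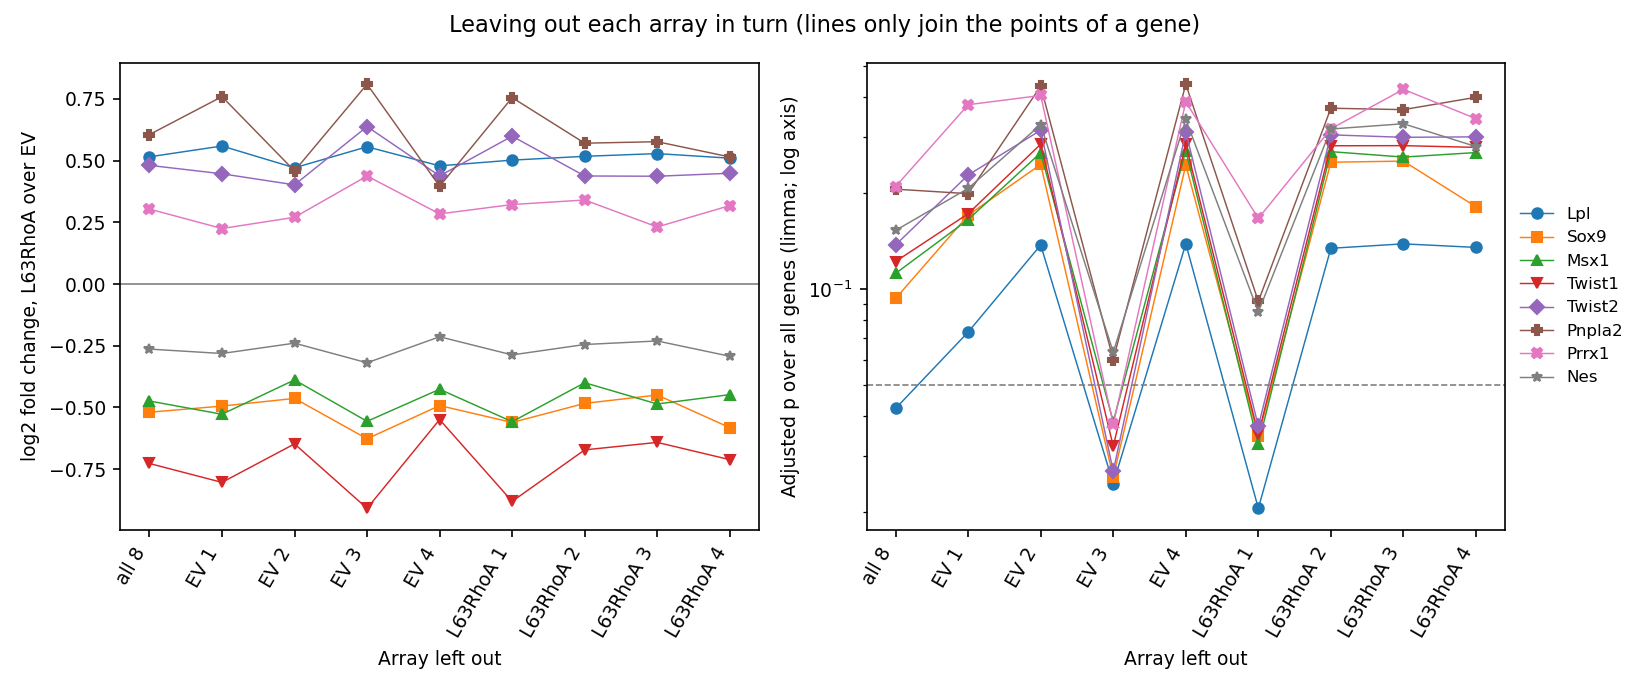
Log2 fold change (left, L63RhoA over EV) and adjusted p over all genes from limma (right, log axis, dashed line at 0.05) of 8 lineage genes with all 8 arrays and with each array left out in turn. No gene changes sign, and Lpl, Sox9, Msx1, Twist1 and Twist2 are all under the line only without EV 3 or L63RhoA 1.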

How the data were processed

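Deposited data of mouse MSCs on 8 Illumina MouseRef-8 v2.0 arrays (4 EV, 4 L63RhoA) were used. The authors extracted signal intensities with GenomeStudio (version not given in the sources used here), and the deposited intensities are linear, with a deposited detection p-value per probe. The authors' processed log2 values matched quantile normalized intensities on the log2 scale to within 5e-09, without a visible variance stabilizing transformation. Of 25697 probes, 23978 had 1 gene symbol, 0 several and 1719 none. Symbols were updated through RefSeq for 23962. Intensities were processed with neqc (limma 3.58.1, R 4.3.3, offset 16). The 12349 probes whose detection p was under 0.05 on 4 or more arrays were kept, genes were represented by the brightest probe, and limma (two-sided, Benjamini-Hochberg over 8360 genes) was tested on simulated data. No label states whether replicate numbers pair the samples, so the replicate block was used as an alternative only. The number of arrays limits the precision.

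The lineage genes and lists were chosen with earlier results of these data known. Values on each array are given for lineage genes that passed, the 3 with the smallest p among adipocyte, osteoblast, chondrocyte and muscle genes, and tested neural and stem marker genes. From the broader lists, genes that passed and the 2 with the smallest p were named by rule. These and the 20 lineage genes tested are the 33 named genes of the closing checks. Further list genes were also named above, and those checks do not cover them. Alternatives were median scaling, the authors' values, omission of the background correction, other filters, array weights, a variance trend, the replicate block, the methods' t-test, other summaries of probes and leaving out each array. Leaving out EV 2 and EV 4 was chosen after seeing the data.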

Additional observations from a re-analysis of the deposited data

Results flagged for a closer look

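In 66 groups of 4 arrays over 33 named genes, 2 arrays lay far from the rest of their group, with a gap to the nearest array that, as a share of the whole range, was above Dixon's 95% critical value, where chance gives about 1 in 20. Twist2 was 9.19 on L63RhoA 1, while the other 3 L63RhoA arrays lay between 9.63 and 9.66 (gap 0.929 of the range). Map2 was 5.29 on L63RhoA 3, while the nearest array was at 4.92 and the lowest at 4.86 (gap 0.86 of the range).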

How the results depend on the processing

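Over all genes, 59 passed. The count was 116 with the authors' processed values and also without background correction, 2098 with array weights, 139 with a robust fit and variance trend, 27 by the methods' t-test (1615 unadjusted), 7 without EV 2 and EV 4 (chosen after seeing the data) and 17 to 1274 with 1 array left out. Of the lineage genes, 1 passed. The count was 0 with median scaling, by the methods' t-test and without EV 2 and EV 4, 8 with array weights (Lpl, Msx1, Nes, Pnpla2, Prrx1, Sox9, Twist1 and Twist2), and 0 to 6 with 1 array left out. The cause was not tested. Lpl had an adjusted p of 0.017 with the authors' values, 0.10 with median scaling, 0.0094 with array weights (limma) and 0.078 by the methods' t-test. With the replicate number as a block, 18 genes and 0 lineage genes passed. No label states whether the numbers pair the samples. Same-numbered arrays deviated with correlations of -0.228 to 0.269, and 0 of 4 EV and 1 of 4 L63RhoA arrays correlated best with their own number. So few arrays cannot decide whether a pairing exists. Detected lineage genes numbered 17 to 30 under other thresholds, beside 20.

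Without EV 2 and EV 4 the sign turned for Pparg (-0.083), Cebpb (0.084), Plin2 (0.031), Msx2 (-0.025), Mef2a (0.072), Nt5e (-0.043), Des (-0.025) and Map2 (-0.053). By another probe it turned for Sox5 (-0.17), Nes (0.15), Nt5e (-0.49) and Ncam1 (0.32), and by the mean of probes for Nt5e (-0.23) and Ncam1 (0.092). With 1 array left out it turned for Cebpb (-0.12 to 0.037), Plin2 (-0.16 to 0.016), Msx2 (-0.046 to 0.10) and Nt5e (-0.041 to 0.068). None of these genes passed the test.

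Signals near background limit what the dim genes can show. With the authors' values the log2 fold changes of 19 of the 33 named genes were smaller by over 1.5 times (1.52 to 3.57 times), and none was larger by that much. Sox9 had -0.34, Msx1 -0.27, Nes -0.17, Sp7 0.13, Dgat1 0.29, Phex 0.19, Prelp 0.09, Chst11 0.10 and Cxcl12 0.52, and of those that moved less Twist1 had -0.57, Twist2 0.43, Pnpla2 0.46 and Lpl 0.36. The others of the 19 were Pparg, Runx1, Msx2, Sox5, Mef2a, Mef2c, Tbx18, Des, Ncam1 and Map2.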
